A study of Mus musculus with 38 samples.

Results

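Glycolysis and the response to low oxygen share many genes, and 38 of them were followed here across mouse embryonic stem (ES) cells grown in 4 media. The set was given as a list of names: the glucose transporters, the enzymes that turn glucose into pyruvate and lactate, the lactate transporters, the pyruvate dehydrogenase kinases, and the sensors, transcription factor subunit and targets of the hypoxia response. All 38 were found by name among the 25965 genes of the RNA-seq table. The rule that lists them uses no measured value, but the list was drawn up with earlier results of these data known. The cells were the XY line E14 (129/Ola), grown without feeders on gelatin and in normal oxygen. GSK3i/L medium held 3 µM CHIR99021, an inhibitor of the kinase GSK3, and was sampled at 24 days (2 libraries, replicates 2 and 3) and at 8 days (3 libraries). The other media were sampled at 8 days with 3 libraries each. 2i/L held both inhibitors, MEKi/L held 1 µM of the MEK inhibitor that the labels write as PD03259010, and S/L was DMEM with 15% fetal bovine serum and no inhibitor. All 4 media held LIF, and all cells were first plated in S/L. The 3 media with inhibitors shared the serum-free base N2B27, so every comparison with S/L set an inhibitor and a change of base medium against serum, and the effects of these changes cannot be told apart there. The study's design calls the RNA samples biological triplicates of 1 cell line.

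Glucose enters the cell through the GLUT carriers, is trapped by hexokinase, and is then split and oxidised to pyruvate by the glycolytic enzymes. Pyruvate is either reduced to lactate by lactate dehydrogenase and exported through the monocarboxylate transporters, or oxidised in mitochondria, a step that the pyruvate dehydrogenase kinases restrain. The transcription factor HIF-1, whose oxygen-labile subunit is Hif1a, is destroyed in normal oxygen after prolyl hydroxylases mark it, and in low oxygen it raises most genes of this set. Mouse ES cells are known for high glycolysis, and primed pluripotent cells rely on it more than naive ones.

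Each value below is in RPM, a read count scaled to the library's total and not divided by gene length, so levels are compared between samples and not between genes. The 8 libraries of MEKi/L, 2i/L and 24-day GSK3i/L held 10550000 to 15760000 reads, recovered from the steps of the values, while the 6 libraries of S/L and 8-day GSK3i/L had been brought to 1 common distribution before deposit and their depth is unknown. Comparisons that cross these sets therefore also cross a difference in processing, and only 2i/L against MEKi/L and 8-day GSK3i/L against S/L lie within 1 kind. All 10 ES cell markers were detected in every library, with a summed level of 4108 to 5789 RPM. The 9 fibroblast and mesenchyme markers summed to 106 to 249 RPM in 8-day GSK3i/L (8 of 9 at 0.5 RPM or more in each library), 6.91 to 8.01 RPM in 24-day GSK3i/L (3 of 9), 14.8 to 15.6 RPM in 2i/L, 6.44 to 10.6 RPM in MEKi/L and 14.6 to 17.0 RPM in S/L. Among them Col3a1 and Prrx1 were at 0 in both 24-day libraries. The 6 neural markers found summed to 24.1 to 25.5 RPM in 24-day GSK3i/L, 43.05 to 71.6 RPM in 2i/L, 93.1 to 151 RPM in MEKi/L, 30.05 to 48.4 RPM in 8-day GSK3i/L and 113 to 129 RPM in S/L. The 8 primitive endoderm markers summed to 76.00 to 95.2 RPM in 24-day GSK3i/L, 263 to 341 RPM in 2i/L, 79.9 to 164 RPM in MEKi/L, 63.7 to 183 RPM in 8-day GSK3i/L and 32.3 to 47.2 RPM in S/L. The 7 trophoblast markers summed to 22.3 to 36.5 RPM in 24-day GSK3i/L, 79.8 to 102 RPM in 2i/L, 65.2 to 80.6 RPM in MEKi/L, 30.4 to 36.6 RPM in 8-day GSK3i/L and 34.8 to 38.7 RPM in S/L. The 6 primitive streak markers summed to 13.7 to 18.9 RPM in 24-day GSK3i/L, 24.5 to 28.1 RPM in 2i/L, 10.1 to 14.3 RPM in MEKi/L, 16.2 to 25.6 RPM in 8-day GSK3i/L and 3.17 to 5.41 RPM in S/L. The 4 blood markers found summed to 1.41 to 1.75 RPM in 24-day GSK3i/L, 1.72 to 2.45 RPM in 2i/L, 4.03 to 6.73 RPM in MEKi/L, 1.13 to 2.26 RPM in 8-day GSK3i/L and 4.36 to 5.60 RPM in S/L. The part of these markers in the results below was not tested. The mean log2 RPM of 37 long transcripts minus that of 40 short ones, a score of each library's transcript length profile, was -3.57 and -2.96 in 24-day GSK3i/L, 0.26 to 0.48 in 2i/L, -1.86 to 0.62 in MEKi/L, -2.66 to 0.28 in 8-day GSK3i/L and -2.83 to -2.39 in S/L. The short ones were nearly all genes of the respiratory chain or ATP synthase, so the score can also follow the level of those genes. Transcript length and that level cannot be told apart in it. Replicate 1 stood apart on this score from the other replicates in MEKi/L (0.62) and in 8-day GSK3i/L (0.28). In these bulk samples fewer cells of a type and less RNA per cell cannot be told apart.

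A gene was called where its limma adjusted p was under 0.05 over the 14980 genes tested, and all 38 genes were among those. Log2 fold changes are limma estimates ± SE. In 2i/L against S/L 24 of the 38 genes were called, against 63.6% of all genes tested, so the share was that of the whole transcriptome. 12 of them were higher and 12 lower, beside 39.1% and 24.4% of all genes. In MEKi/L against S/L 20 were called (background 40.8%), 12 higher (26.1%) and 8 lower (14.7%). In 8-day GSK3i/L against S/L 16 were called (background 31.1%), 8 higher (16.8%) and 8 lower (14.4%). At 8 days fewer were called between the serum-free media, and fewer of all genes were too. The shares of the 38 were 10.5% in 2i/L against MEKi/L, 28.9% in 2i/L against GSK3i/L and 21.1% in MEKi/L against GSK3i/L. Each was near its background. In 2i/L against MEKi/L 4 genes were called (background 12.9%), 1 higher (6.81%) and 3 lower (6.11%). In 2i/L against GSK3i/L 11 were called (background 27.8%), 3 higher (19.8%) and 8 lower (8.02%). In MEKi/L against GSK3i/L 8 were called (background 17.8%), 4 higher (12.2%) and 4 lower (5.65%). In 24-day against 8-day GSK3i/L 16 were called (background 17.5%), 3 higher (4.3%) and 13 lower (13.2%). The median log2 fold change of the 38 genes was 0.03 in 2i/L and 0.03 in MEKi/L over S/L, beside 0.28 and 0.17 for all genes tested, and -0.54 in 24-day over 8-day GSK3i/L, beside -0.19 for all genes. The called genes thus pointed both ways against S/L and mostly down between the GSK3i/L times. 4 genes, Egln1, Gapdh, Pdk3 and Pfkfb3, were called in no comparison. For Gapdh the level itself is uncertain, as given below.

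**Figure D1:**
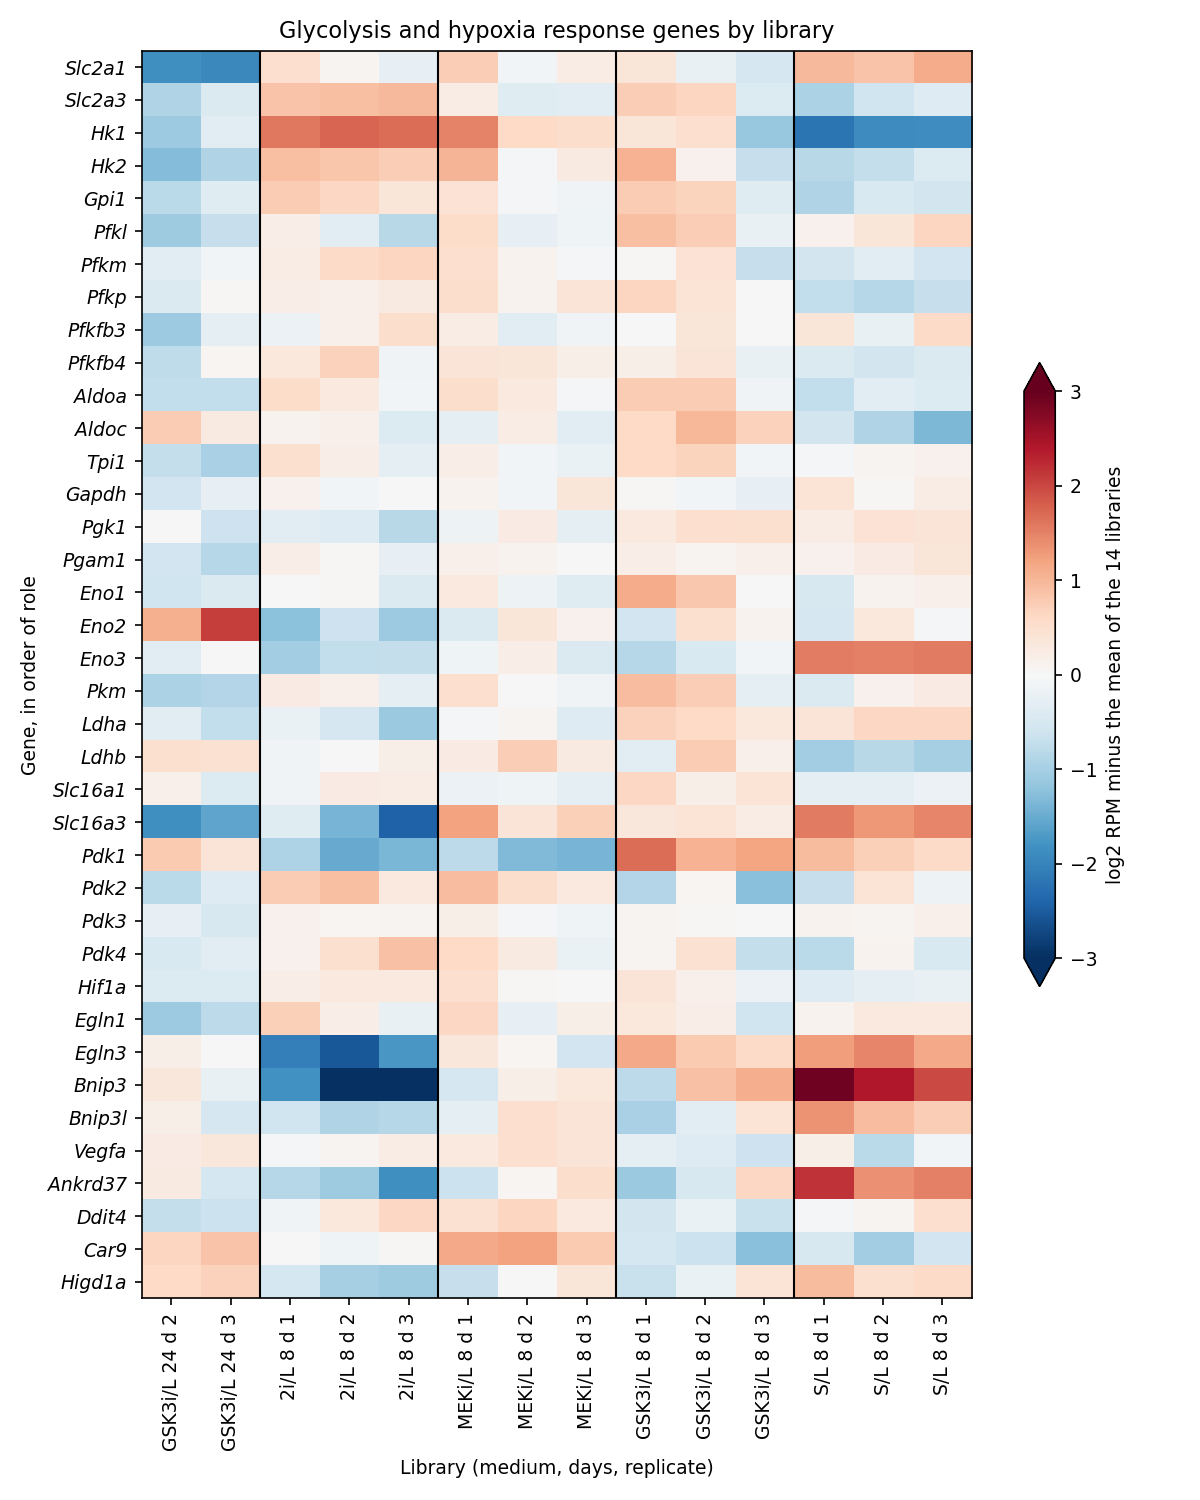
Log2 RPM of each of the 38 genes minus its mean over the 14 libraries (colour scale -3 to 3, values beyond it at the end colours), with genes down the page in order of role and libraries across by medium, days and replicate. Bnip3, Egln3, Ankrd37 and Slc16a3 are highest in S/L and lowest or near lowest in 2i/L, while Hk1 is lowest in S/L and highest in 2i/L.

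The split between higher and lower calls in the set depended on how the libraries were scaled. Scaling acts on all genes, and the shares of all genes called under the other scalings are not given here. Whether the splits below differ from those of all genes therefore cannot be told. With each library centred on the median gene, the calls were 7 higher and 15 lower in 2i/L against S/L, 4 and 9 in MEKi/L against S/L, 1 and 7 in 2i/L against MEKi/L, and 2 and 13 in 2i/L against GSK3i/L. With trimmed mean scaling they were 7 higher and 16 lower in 2i/L against S/L, 5 and 10 in MEKi/L against S/L, and 2 and 10 in 2i/L against GSK3i/L. With quantile normalization they were 10 higher and 16 lower in 2i/L against S/L, 8 and 6 in MEKi/L against S/L, and 3 and 7 in 24-day against 8-day GSK3i/L.

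Genes of glucose entry were called in each serum-free medium. Of the 2 glucose transporters and 2 hexokinases, 3 were higher and 1 lower in 2i/L than in S/L, 2 were higher and 1 lower in MEKi/L, and 2 were higher and 1 lower in 8-day GSK3i/L. Of all genes 39.1% were higher and 24.4% lower in 2i/L, 26.1% and 14.7% in MEKi/L, and 16.8% and 14.4% in GSK3i/L. Hk1, the hexokinase bound to mitochondria in most tissues (chr10:62268855-62379908 in GRCm38), had 233, 259.6 and 247 RPM in 2i/L, 217, 117 and 112 RPM in MEKi/L, 99.5, 110.3 and 34.95 RPM in GSK3i/L, against 17.00, 20.9 and 21.4 RPM in S/L. Every serum-free library lay above every S/L library, and the 2i/L libraries were the highest of all. Its log2 fold change over S/L was 3.65 ± 0.37 (limma adjusted p = 3.02e-06) in 2i/L, 2.85 ± 0.37 (limma adjusted p = 5.1e-05) in MEKi/L and 1.89 ± 0.37 (limma adjusted p = 0.0021) in GSK3i/L. Hk1 was also higher in 2i/L than in GSK3i/L, with a log2 fold change of 1.76 ± 0.37 (limma adjusted p = 0.0035), and these 4 calls held in all 26 alternative settings run. In 24-day GSK3i/L Hk1 had 36.1 and 61.4 RPM.

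Hk2, the inducible hexokinase and a HIF-1 target, had 467, 448 and 420.2 RPM in 2i/L, 509, 242 and 301 RPM in MEKi/L, 517, 274 and 156 RPM in GSK3i/L, against 142, 153 and 190.3 RPM in S/L. The 2i/L and MEKi/L libraries lay above all S/L libraries, while GSK3i/L replicate 3 lay among them. Hk2 was higher in 2i/L (log2 fold change 1.47 ± 0.35, limma adjusted p = 0.0026) and in MEKi/L (1.06 ± 0.35, limma adjusted p = 0.028) than in S/L. Slc2a3, which encodes GLUT3, the high-affinity carrier of neurons and of the early embryo, had 1664, 1721 and 1800.3 RPM in 2i/L, 1072, 710.1 and 728 RPM in MEKi/L, 1536, 1436 and 695 RPM in GSK3i/L, against 476, 609 and 707 RPM in S/L. The 3 2i/L libraries were the highest of the 14, and GSK3i/L replicate 3 was below the highest S/L library. Its log2 fold change was 1.55 ± 0.29 (limma adjusted p = 0.00045) in 2i/L over S/L, 0.97 ± 0.29 (limma adjusted p = 0.023) in GSK3i/L over S/L and 1.07 ± 0.29 (limma adjusted p = 0.027) in 2i/L over MEKi/L. Slc2a1, which encodes the basal carrier GLUT1 and is a HIF-1 target, went the other way and had 282, 210.2 and 167 RPM in 2i/L, 331, 190.1 and 233 RPM in MEKi/L, 256, 171 and 141 RPM in GSK3i/L, against 393, 361 and 435 RPM in S/L. No serum-free library reached the lowest S/L value. Slc2a1 overlaps Gm12868 on the opposite strand, which had up to 31.5 RPM. Slc2a1 was lower in 2i/L (log2 fold change -0.88 ± 0.26, limma adjusted p = 0.0083), in MEKi/L (-0.69 ± 0.26, limma adjusted p = 0.043) and in GSK3i/L (-1.11 ± 0.26, limma adjusted p = 0.0059) than in S/L. With the transcript length score as a covariate the Hk2 and Slc2a3 rises in 2i/L were not called, and the score itself did not overlap between 2i/L and S/L, so the score and the medium cannot be told apart. Leaving out 1 library ended some calls, named here and below with that library, as its medium and replicate number, and the log2 fold change without it. They were Hk2 in MEKi/L over S/L (without S/L 1 or 2 or MEKi/L 1, giving 0.75 to 1.02) and Slc2a3 in GSK3i/L over S/L (without S/L 1 or 2 or GSK3i/L 1 or 2, giving 0.76 to 0.99) and 2i/L over MEKi/L (without MEKi/L 2 or 3 or 2i/L 1, 2 or 3, giving 0.97 to 1.10). Also ended was Slc2a1 in MEKi/L over S/L (without S/L 1, 2 or 3, GSK3i/L 2, 24-day GSK3i/L 2 or 3, MEKi/L 2 or 3 or 2i/L 2, giving -0.76 to -0.51).

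**Figure D2:**
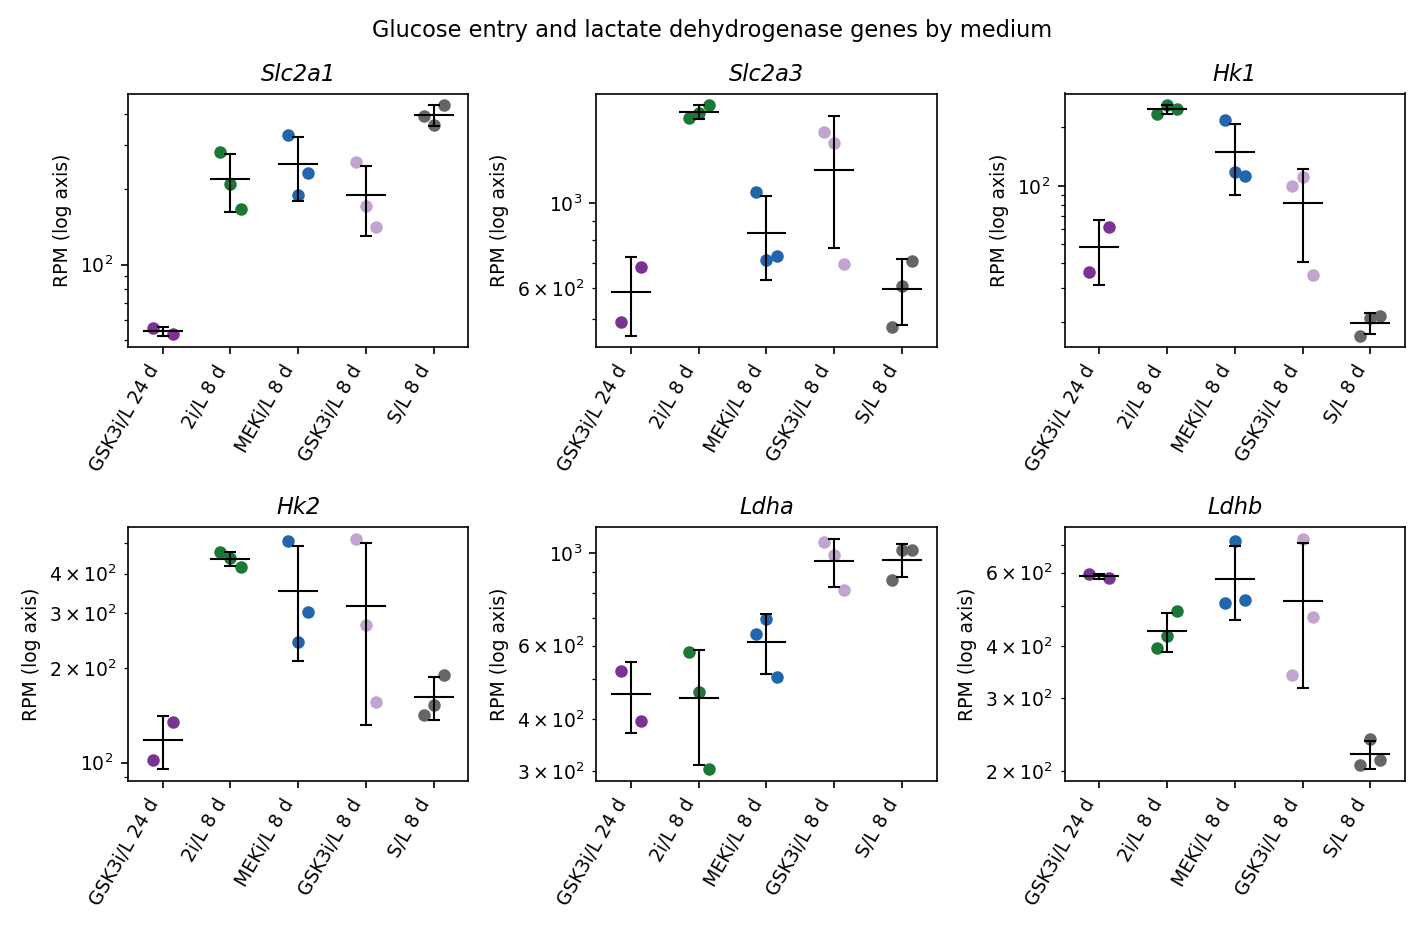
RPM on log axes of 2 glucose transporter, 2 hexokinase and 2 lactate dehydrogenase genes by medium and day, with 1 point per library, a bar at the mean and error bars of 1 SD. Hk1 and Ldhb are above all S/L libraries in every other library, Slc2a1 is below them, and Ldha is below them in 2i/L and MEKi/L.

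In the body of the pathway the enzyme genes rose or fell by isoform. Against S/L the 3 phosphofructokinase genes were higher in 2 cases in 2i/L, 2 in MEKi/L and 1 in GSK3i/L, both aldolase genes were higher in all 3 media, and Eno3 was lower in all 3. In these media 39.1%, 26.1% and 16.8% of all genes were higher than in S/L, and 24.4%, 14.7% and 14.4% were lower. Gpi1, which makes fructose 6-phosphate, had 702, 640.0 and 537 RPM in 2i/L, 559.8, 401 and 387 RPM in MEKi/L, 709.7, 662 and 326 RPM in GSK3i/L, against 222, 303 and 284 RPM in S/L. The 2i/L libraries lay above all S/L libraries, and Gpi1 was higher in 2i/L (log2 fold change 1.22 ± 0.28, limma adjusted p = 0.0018), in MEKi/L (0.73 ± 0.28, limma adjusted p = 0.049) and in GSK3i/L (1.00 ± 0.28, limma adjusted p = 0.016). Pfkp, the platelet-type phosphofructokinase, which commits sugar to glycolysis, had 278, 267 and 291 RPM in 2i/L, 351, 262 and 315 RPM in MEKi/L, 381, 321 and 238 RPM in GSK3i/L, against 145, 133 and 149.8 RPM in S/L. All 9 serum-free libraries at 8 days exceeded the S/L ones, with log2 fold changes of 0.97 ± 0.20 (limma adjusted p = 0.00079) in 2i/L, 1.11 ± 0.20 (limma adjusted p = 0.00058) in MEKi/L and 1.11 ± 0.20 (limma adjusted p = 0.00092) in GSK3i/L. Its muscle-type relative Pfkm ranged over 27.4 to 68.8 RPM and was higher in 2i/L (log2 fold change 0.97 ± 0.24) and MEKi/L (0.69 ± 0.24). Both overlap a gene on the opposite strand, Pitrm1 for Pfkp (up to 180.5 RPM) and Senp1 for Pfkm (up to 69.9 RPM), and whether reads were counted by strand is not given in the sources used here. Pfkl, the liver-type form, had 175, 122 and 85.8 RPM in 2i/L, 225, 129 and 139 RPM in MEKi/L, 287, 255 and 131 RPM in GSK3i/L, against 167, 197 and 239 RPM in S/L, groups that overlapped with no call. Of the enzymes that set fructose 2,6-bisphosphate, the activator of phosphofructokinase, Pfkfb4 ranged over 1.90 to 5.22 RPM and was higher in 2i/L and MEKi/L than in S/L, with log2 fold changes of 0.78 ± 0.29 and 0.79 ± 0.29, while Pfkfb3 ranged over 3.57 to 11.4 RPM. The rises of Gpi1, Pfkm, Pfkp and Pfkfb4 in 2i/L were not called with the transcript length score as a covariate. Calls also lost with 1 library fewer were Gpi1 in MEKi/L over S/L (without S/L 1, 2 or 3, GSK3i/L 2, 24-day GSK3i/L 2 or 3, MEKi/L 1, 2 or 3 or 2i/L 1, 2 or 3, giving 0.56 to 0.83) and GSK3i/L over S/L (without S/L 1 or GSK3i/L 1 or 2, giving 0.80 to 0.87). So was Pfkm in MEKi/L over S/L (without S/L 1, 2 or 3 or MEKi/L 1 or 2, giving 0.53 to 0.77). For Pfkfb4 they were 2i/L over S/L (without S/L 1, 2 or 3 or 2i/L 1 or 2, giving 0.58 to 0.80) and MEKi/L over S/L (without S/L 1, 2 or 3, MEKi/L 1, 2 or 3 or 2i/L 1, giving 0.74 to 0.85).

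Aldoc, the brain-type aldolase, had 41.1, 42.4 and 28.6 RPM in 2i/L, 31.7, 44.5 and 30.5 RPM in MEKi/L, 57.3, 75.9 and 61.8 RPM in GSK3i/L, against 25.9, 20.5 and 15.1 RPM in S/L. It was highest in GSK3i/L, with log2 fold changes over S/L of 1.69 ± 0.24 (limma adjusted p = 0.00016) in GSK3i/L, 0.88 ± 0.24 (limma adjusted p = 0.0054) in 2i/L and 0.81 ± 0.24 (limma adjusted p = 0.015) in MEKi/L. Between inhibitors Aldoc was lower in MEKi/L than in GSK3i/L (-0.88 ± 0.24, limma adjusted p = 0.018) and lower in 2i/L than in GSK3i/L (-0.81 ± 0.24, limma adjusted p = 0.021). Aldoa, the ubiquitous form, had 1903, 1586 and 1225 RPM in 2i/L, 1873, 1590.5 and 1245 RPM in MEKi/L, 2219, 2219 and 1210.5 RPM in GSK3i/L, against 778, 1048 and 985 RPM in S/L. Here too the groups did not overlap with S/L, and the log2 fold changes were 0.96 ± 0.27 (limma adjusted p = 0.015) in GSK3i/L, 0.73 ± 0.27 (limma adjusted p = 0.026) in 2i/L and 0.74 ± 0.27 (limma adjusted p = 0.039) in MEKi/L. The near copy Aldoart1 had 12.6 to 31.4 RPM, so reads shared with Aldoa are uncertain. The Aldoc call in 2i/L over S/L was lost under each of the 3 other scalings, and that of Aldoa under 2 of them and with the score. Single libraries ended the calls of Aldoc in MEKi/L over S/L (without S/L 3 or MEKi/L 2, giving 0.60 to 0.64), MEKi/L over GSK3i/L (without GSK3i/L 2 or MEKi/L 1 or 3, giving -0.81 to -0.76) and 2i/L over GSK3i/L (without GSK3i/L 2 or 2i/L 3, giving -0.70 to -0.63). They also ended those of Aldoa in GSK3i/L over S/L (without S/L 1 or GSK3i/L 1 or 2, giving 0.82 to 0.83), 2i/L over S/L (without S/L 1 or 2i/L 1 or 2, giving 0.58 to 0.72) and MEKi/L over S/L (without S/L 1, 2 or 3, 24-day GSK3i/L 2 or 3, MEKi/L 1 or 2 or 2i/L 2, giving 0.60 to 0.82).

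Most of the later steps of the pathway were not called against S/L. Tpi1, which interconverts the triose phosphates, had 328, 268 and 193 RPM in 2i/L, 269.7, 223 and 207 RPM in MEKi/L, 357, 377 and 223 RPM in GSK3i/L, against 228, 249 and 258 RPM in S/L. Gapdh, which oxidises glyceraldehyde 3-phosphate, had 14.3, 12.3 and 12.9 RPM in 2i/L, 14.02, 12.3 and 16.8 RPM in MEKi/L, 13.3, 12.2 and 10.97 RPM in GSK3i/L, against 17.2, 13.3 and 15.2 RPM in S/L. Gapdh has many near-identical copies in the mouse genome, and how reads that map to several places were counted is not given in the sources used here, so its level is uncertain. Pgk1, the first ATP-forming enzyme, had 251, 240.1 and 176 RPM in 2i/L, 282, 373 and 255 RPM in MEKi/L, 386, 442 and 439 RPM in GSK3i/L, against 367, 420.5 and 408 RPM in S/L. All 2i/L libraries were below all S/L libraries, and Pgk1 was lower in 2i/L than in S/L (log2 fold change -0.85 ± 0.21, limma adjusted p = 0.0030) and than in GSK3i/L (-0.94 ± 0.21, limma adjusted p = 0.0050). The call against S/L was lost with the transcript length score as a covariate. Pgam1, the mutase that follows, had 89.4, 79.4 and 65.5 RPM in 2i/L, 86.4, 83.2 and 76.1 RPM in MEKi/L, 88.9, 81.1 and 85.8 RPM in GSK3i/L, against 84.5, 91.9 and 99.7 RPM in S/L. Pkm, which makes pyruvate and ATP in the last step, had 1822, 1713 and 1252 RPM in 2i/L, 2189, 1539 and 1425 RPM in MEKi/L, 2903, 2569.8 and 1257 RPM in GSK3i/L, against 1143, 1689 and 1839.6 RPM in S/L. None of Tpi1, Gapdh, Pgam1 and Pkm was called at 8 days, and each serum-free group overlapped S/L in all 4.

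The 3 enolase genes behaved differently from one another. Eno3, the muscle-type enolase, had 5.56, 6.96 and 7.08 RPM in 2i/L, 10.5, 13.2 and 8.53 RPM in MEKi/L, 6.33, 8.45 and 10.9 RPM in GSK3i/L, against 33.7, 33.1 and 34.1 RPM in S/L. The S/L libraries lay far above all others, and the log2 fold changes were -2.37 ± 0.22 (limma adjusted p = 1.6e-06) in 2i/L, -1.66 ± 0.22 (limma adjusted p = 6.5e-05) in MEKi/L and -2.01 ± 0.22 (limma adjusted p = 2.7e-05) in GSK3i/L. These 3 calls held in all 26 alternative settings run, and 24-day GSK3i/L had 9.11 and 11.4 RPM. Eno1, the enolase of most cells, had 638, 659.7 and 474 RPM in 2i/L, 792, 580.2 and 501 RPM in MEKi/L, 1387, 1131 and 636 RPM in GSK3i/L, against 463, 691 and 713 RPM in S/L, with no call at 8 days and overlapping groups. Eno2, the neuronal form, had 3.89, 5.93 and 4.30 RPM in 2i/L, 6.79, 11.9 and 9.95 RPM in MEKi/L, 6.15, 12.8 and 9.84 RPM in GSK3i/L, against 6.48, 11.4 and 8.74 RPM in S/L. It was lower in 2i/L than in S/L (log2 fold change -0.90 ± 0.34, limma adjusted p = 0.031) and than in GSK3i/L (-0.99 ± 0.34, limma adjusted p = 0.043). Both calls were lost with the score as a covariate. Leaving out 1 library also ended Eno2 in 2i/L over S/L (without S/L 2 or 3 or 2i/L 1 or 3, giving -0.89 to -0.70) and 2i/L over GSK3i/L (without S/L 3, GSK3i/L 2 or 3, MEKi/L 3 or 2i/L 1 or 3, giving -0.99 to -0.75).

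**Figure D3:**
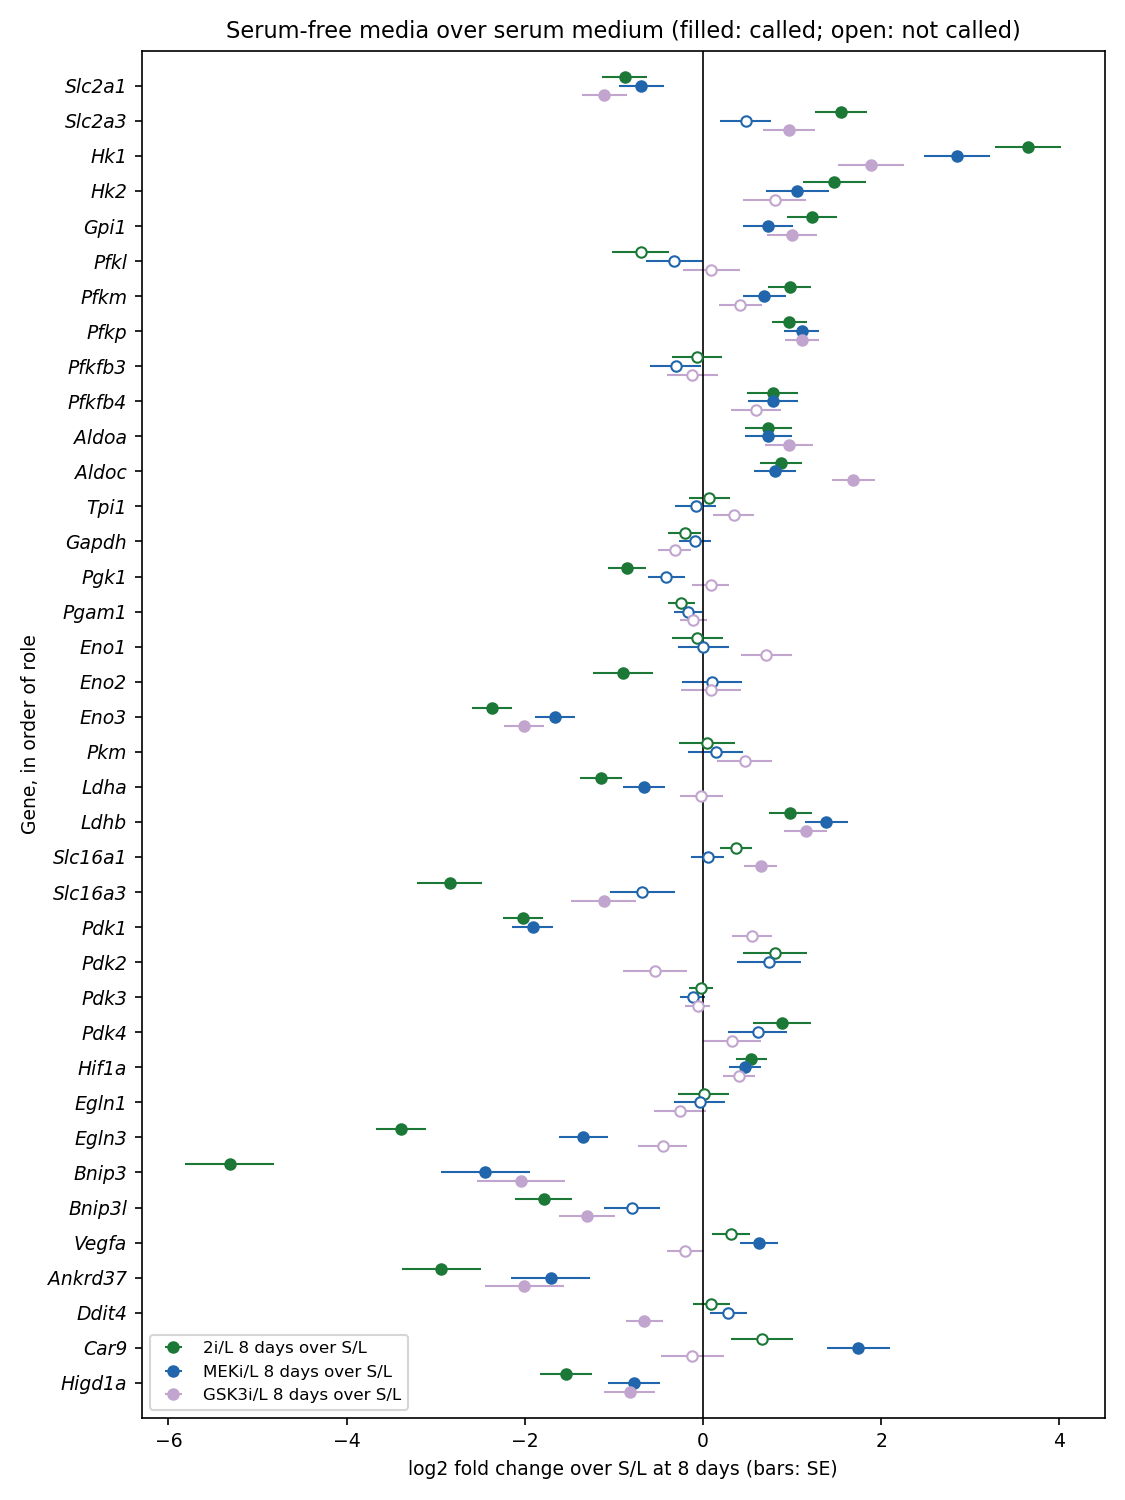
Log2 fold change over S/L at 8 days of each of the 38 genes (x axis; y axis, genes in order of role) in 2i/L, MEKi/L and GSK3i/L, as limma estimates with bars of 1 SE; filled points were called. The 3 media share the S/L libraries, so their points are not independent; Hk1 has the highest points and Bnip3 in 2i/L the lowest.

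The list of 26 other glycolysis and gluconeogenesis genes gave 20 that could be tested. Of these, 8 were higher and 3 lower in 2i/L, 8 higher and 2 lower in MEKi/L, and 5 higher and 2 lower in GSK3i/L than in S/L, with median log2 fold changes of 0.51, 0.62 and 0.54 beside 0.28, 0.17 and 0.06 for all genes. The share called was 55.0% in 2i/L, 50.0% in MEKi/L and 35.0% in GSK3i/L, beside 63.6%, 40.8% and 31.1% of all genes. Pgm1, a phosphoglucomutase gene, averaged 91.1 ± 4.97 RPM in 2i/L and 17.02 ± 2.17 RPM in S/L (SD), with a log2 fold change of 2.43 ± 0.18 (limma adjusted p = 1.5e-07). Pfkfb2, another enzyme of fructose 2,6-bisphosphate, averaged 27.8 ± 5.39 RPM in 2i/L and 7.88 ± 0.887 RPM in S/L (SD), with a log2 fold change of 1.81 ± 0.20 (limma adjusted p = 5.7e-06). Between the inhibitors, 3 of the 20 were higher (15%) and 2 lower (10%) in MEKi/L than in GSK3i/L, beside 12.2% and 5.65% of all genes. Among those with a mean of at least 5 RPM the largest change was in Fbp2, the muscle-type fructose bisphosphatase of gluconeogenesis. Fbp2 averaged 12.9 ± 1.76 RPM in MEKi/L and 1.08 ± 0.384 RPM in GSK3i/L (SD), a log2 fold change of 3.63 ± 0.30 (limma adjusted p = 2.3e-06).

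At the lactate step the subunit genes moved in opposite directions. Ldha, whose subunit favours lactate formation and which is a HIF-1 target, had 578, 464 and 304 RPM in 2i/L, 641, 697 and 504 RPM in MEKi/L, 1062, 989 and 813 RPM in GSK3i/L, against 862, 1014 and 1014 RPM in S/L. All 2i/L and MEKi/L libraries were below the lowest S/L library, whereas GSK3i/L overlapped S/L. Ldha was lower in 2i/L than in S/L (log2 fold change -1.15 ± 0.24, limma adjusted p = 0.00094) and than in GSK3i/L (-1.13 ± 0.24, limma adjusted p = 0.0034), and lower in MEKi/L than in S/L (-0.66 ± 0.24, limma adjusted p = 0.039). Ldhb, whose subunit favours the return of lactate to pyruvate, had 395, 422 and 485 RPM in 2i/L, 507, 715 and 517 RPM in MEKi/L, 341, 725 and 469.7 RPM in GSK3i/L, against 207, 239 and 213 RPM in S/L. Each serum-free library exceeded each S/L library, and the log2 fold changes were 0.98 ± 0.24 (limma adjusted p = 0.0030) in 2i/L, 1.38 ± 0.24 (limma adjusted p = 0.00052) in MEKi/L and 1.15 ± 0.24 (limma adjusted p = 0.0031) in GSK3i/L. In 24-day GSK3i/L Ldhb had 595 and 583 RPM. The rise of Ldhb against S/L held in all 26 alternative settings in each of the 3 media, as did both falls of Ldha in 2i/L. The call of Ldha in MEKi/L over S/L (without S/L 1, 2 or 3, MEKi/L 1 or 3 or 2i/L 2, giving -0.74 to -0.52) depended on single libraries.

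The lactate transporters differed from each other. Slc16a3, which encodes the exporter MCT4 (chr11:120948480-120960868), had 30.3, 14.8 and 7.27 RPM in 2i/L, 89.5, 51.2 and 63.9 RPM in MEKi/L, 49.7, 52.2 and 45.9 RPM in GSK3i/L, against 115, 96.5 and 108 RPM in S/L. All 2i/L libraries lay below every other 8-day library. Slc16a3 was lower in 2i/L than in S/L (log2 fold change -2.84 ± 0.36, limma adjusted p = 2.2e-05), than in MEKi/L (-2.16 ± 0.36, limma adjusted p = 0.0017) and than in GSK3i/L (-1.73 ± 0.36, limma adjusted p = 0.0034), calls that held in all 26 settings. It was also lower in GSK3i/L than in S/L (-1.11 ± 0.36, limma adjusted p = 0.034). Slc16a1, which encodes the broadly expressed MCT1, ranged over 102 to 212 RPM. It was higher in GSK3i/L than in S/L (log2 fold change 0.65 ± 0.18, limma adjusted p = 0.016) and lower in MEKi/L than in GSK3i/L (-0.59 ± 0.18, limma adjusted p = 0.034). Whether the MEKi/L and GSK3i/L libraries of 1 number are paired is not known. With the replicate number as a block this last call was lost, leaving 7 of the 8 calls between these media. With 1 library fewer, calls were lost for Slc16a3 in GSK3i/L over S/L (without S/L 1, 2 or 3 or GSK3i/L 1 or 2, giving -1.18 to -1.05). The same held for Slc16a1 in GSK3i/L over S/L (without S/L 1 or GSK3i/L 1, giving 0.53 to 0.63) and MEKi/L over GSK3i/L (without GSK3i/L 1 or MEKi/L 1, 2 or 3, giving -0.62 to -0.48).

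Of the 4 kinases that hold back pyruvate oxidation, Pdk1 was lower and Pdk2 higher in MEKi/L than in GSK3i/L. Pdk1, a HIF-1 target (chr2:71873224-71903858), had 59.4, 39.4 and 43.1 RPM in 2i/L, 65.2, 45.2 and 42.7 RPM in MEKi/L, 357, 231 and 254 RPM in GSK3i/L, against 218, 183 and 168 RPM in S/L. The 2i/L and MEKi/L libraries together lay far below every GSK3i/L and S/L library. Pdk1 was lower in 2i/L (log2 fold change -2.02 ± 0.23, limma adjusted p = 6.98e-06) and in MEKi/L (-1.91 ± 0.23, limma adjusted p = 2.5e-05) than in S/L, while in GSK3i/L over S/L the value was 0.55 ± 0.23 (limma adjusted p = 0.079). The inhibitors differed directly, with a log2 fold change of -2.46 ± 0.23 (limma adjusted p = 5.96e-06) in MEKi/L over GSK3i/L and -2.57 ± 0.23 (limma adjusted p = 4.98e-06) in 2i/L over GSK3i/L. These 4 calls held in all 26 settings, and in 24-day GSK3i/L Pdk1 had 194 and 148 RPM.

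Pdk2, a kinase of most tissues, had 7.47, 8.22 and 5.36 RPM in 2i/L, 8.38, 6.33 and 5.40 RPM in MEKi/L, 2.37, 4.59 and 1.84 RPM in GSK3i/L, against 2.70, 5.81 and 3.92 RPM in S/L. It was higher in 2i/L (log2 fold change 1.35 ± 0.36, limma adjusted p = 0.014) and in MEKi/L (1.28 ± 0.36, limma adjusted p = 0.023) than in GSK3i/L, whose libraries lay below those of the other inhibitor media. Pdk4, a kinase raised by fasting, ranged over 3.77 to 12.2 RPM and was higher in 2i/L than in S/L, with a log2 fold change of 0.89 ± 0.33 (limma adjusted p = 0.029). Pdk3 ranged over 19.2 to 30.1 RPM. Losing 1 library ended the calls of Pdk2 in 2i/L over GSK3i/L (without GSK3i/L 3 or 2i/L 2, giving 1.07 to 1.22) and MEKi/L over GSK3i/L (without GSK3i/L 1 or 3 or MEKi/L 1 or 2, giving 1.00 to 1.31) and Pdk4 in 2i/L over S/L (without S/L 1 or 3 or 2i/L 2 or 3, giving 0.68 to 0.90). Of 9 other genes of mitochondrial pyruvate use that could be tested, 4 were higher and 2 lower in 2i/L than in S/L, 2 higher and 1 lower in MEKi/L, and 4 higher in GSK3i/L. The share called was 66.7% in 2i/L, 33.3% in MEKi/L and 44.4% in GSK3i/L, beside 63.6%, 40.8% and 31.1% of all genes. The phosphatases that undo the work of the Pdk kinases went opposite ways. Pdp2 averaged 36.3 ± 4.09 RPM in 2i/L and 10.1 ± 1.17 RPM in S/L (SD), with a log2 fold change of 1.84 ± 0.17 (limma adjusted p = 1.1e-06). Pdp1 averaged 4.94 ± 0.385 RPM in 2i/L and 17.8 ± 2.40 RPM in S/L (SD), with a log2 fold change of -1.85 ± 0.25 (limma adjusted p = 3.6e-05).

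Hif1a, the oxygen-labile subunit itself, had 127, 136 and 136 RPM in 2i/L, 158, 114 and 112 RPM in MEKi/L, 147, 123 and 97.96 RPM in GSK3i/L, against 85.2, 93.1 and 96.1 RPM in S/L. The serum-free libraries at 8 days lay above the S/L ones, and Hif1a was higher in 2i/L (log2 fold change 0.54 ± 0.18, limma adjusted p = 0.015) and in MEKi/L (0.47 ± 0.18, limma adjusted p = 0.046) than in S/L. Both calls were lost under each of the 3 other scalings tried. Single libraries ended those of Hif1a in 2i/L over S/L (without S/L 1, giving 0.49) and MEKi/L over S/L (without S/L 1, 2 or 3, GSK3i/L 2, 24-day GSK3i/L 2 or 3, MEKi/L 1 or 2i/L 1, 2 or 3, giving 0.31 to 0.51). The RNA level does not measure the protein, which is set mainly by its destruction. Of the prolyl hydroxylases that mark the protein, Egln1, the main oxygen sensor, ranged over 6.30 to 21.8 RPM.

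Egln3, the sensor that HIF itself induces (chr12:54178981-54203860), had 1.45, 1.03 and 1.79 RPM in 2i/L, 7.55, 6.19 and 3.98 RPM in MEKi/L, 13.2, 10.2 and 8.82 RPM in GSK3i/L, against 14.3, 16.4 and 13.02 RPM in S/L. The 2i/L libraries were below every other library, and MEKi/L lay between 2i/L and S/L without overlap. Its log2 fold change was -3.39 ± 0.28 (limma adjusted p = 4.2e-07) in 2i/L and -1.35 ± 0.28 (limma adjusted p = 0.0017) in MEKi/L over S/L. It was also -2.04 ± 0.28 (limma adjusted p = 0.00029) in 2i/L over MEKi/L, -2.94 ± 0.28 (limma adjusted p = 8.1e-06) in 2i/L over GSK3i/L and -0.89 ± 0.28 (limma adjusted p = 0.037) in MEKi/L over GSK3i/L. All of these but the last held in all 26 settings, and the last was lost with 1 library fewer, Egln3 in MEKi/L over GSK3i/L (without GSK3i/L 1 or 2 or MEKi/L 2 or 3, giving -0.95 to -0.63). The 2i/L values stood on 13 to 27 reads, and in 24-day GSK3i/L Egln3 had 6.76 and 5.99 RPM. Of 14 further HIF regulators tested, 3 were higher and 6 lower in 2i/L than in S/L, 3 higher and 3 lower in MEKi/L, and 1 higher and 3 lower in GSK3i/L. The share called was 64.3% in 2i/L, 42.9% in MEKi/L and 28.6% in GSK3i/L, beside 63.6%, 40.8% and 31.1% of all genes. With both directions together it was thus near the background in each medium. Lower calls made up 42.9%, 21.4% and 21.4% in these media, beside 24.4%, 14.7% and 14.4% of all genes. Higher calls made up 21.4%, 21.4% and 7.14%, beside 39.1%, 26.1% and 16.8%. Tceb1, which encodes the elongin C subunit of the VHL ligase that removes HIF, averaged 80.9 ± 4.36 RPM in 2i/L and 465 ± 85.1 RPM in S/L (SD), with a log2 fold change of -2.51 ± 0.43 (limma adjusted p = 0.00024). Arnt, the constant partner of Hif1a, averaged 106 ± 11.5 RPM in 2i/L and 51.9 ± 7.33 RPM in S/L (SD), with a log2 fold change of 1.03 ± 0.20 (limma adjusted p = 0.00065). Epas1, which encodes HIF-2 alpha, averaged 52.1 ± 19.7 RPM in MEKi/L and 14.9 ± 7.69 RPM in GSK3i/L (SD), with a log2 fold change of 1.90 ± 0.34 (limma adjusted p = 0.0012).

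Among the 7 further hypoxia response genes of the set, 4 were lower and none higher in 2i/L than in S/L. The corresponding counts were 3 lower and 2 higher in MEKi/L, and 5 lower and none higher in GSK3i/L, beside backgrounds for lower calls of 24.4%, 14.7% and 14.4% of all genes. Bnip3, which encodes a receptor for the removal of mitochondria (chr7:138890836-138909519), had 14.3, 6.09 and 3.77 RPM in 2i/L, 35.5, 57.3 and 62.7 RPM in MEKi/L, 29.5, 93.2 and 107 RPM in GSK3i/L, against 384, 267 and 200.2 RPM in S/L. The media fell into 3 bands, with S/L highest, both single inhibitors lower and 2i/L lowest, and only the single inhibitors overlapped each other. The log2 fold change over S/L was -5.31 ± 0.50 (limma adjusted p = 1.5e-06) in 2i/L, -2.44 ± 0.50 (limma adjusted p = 0.0017) in MEKi/L and -2.04 ± 0.50 (limma adjusted p = 0.0081) in GSK3i/L. In 2i/L it was -2.87 ± 0.50 (limma adjusted p = 0.0021) over MEKi/L and -3.27 ± 0.50 (limma adjusted p = 0.00035) over GSK3i/L. All 5 calls held in all 26 settings, and 24-day GSK3i/L had 63.7 and 43.1 RPM.

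Bnip3l, the related receptor also called NIX, had 56.5, 45.4 and 47.1 RPM in 2i/L, 70.1, 122 and 112 RPM in MEKi/L, 43.9, 67.02 and 114 RPM in GSK3i/L, against 216, 162 and 142 RPM in S/L. It was lower in 2i/L (log2 fold change -1.79 ± 0.31, limma adjusted p = 0.00028) and in GSK3i/L (-1.30 ± 0.31, limma adjusted p = 0.0078) than in S/L, with no overlap of replicates, while the 24-day libraries had 95.9 and 60.1 RPM. Ankrd37, a small ankyrin repeat gene induced by HIF-1, had 2.36, 2.05 and 1.19 RPM in 2i/L, 2.73, 4.46 and 6.16 RPM in MEKi/L, 1.99, 3.06 and 6.59 RPM in GSK3i/L, against 19.3, 11.1 and 12.2 RPM in S/L. S/L lay above every other library, with log2 fold changes of -2.94 ± 0.44 (limma adjusted p = 8.4e-05) in 2i/L, -1.71 ± 0.44 (limma adjusted p = 0.0078) in MEKi/L and -2.01 ± 0.44 (limma adjusted p = 0.0045) in GSK3i/L. Ankrd37 overlaps Ufsp2 on the opposite strand, which had up to 23.3 RPM, and in 24-day GSK3i/L it had 5.17 and 2.99 RPM. Higd1a, a mitochondrial protein gene that HIF-1 induces, had 20.2, 14.5 and 13.9 RPM in 2i/L, 17.96, 29.4 and 37.5 RPM in MEKi/L, 18.2, 25.4 and 38.4 RPM in GSK3i/L, against 56.3, 40.6 and 43.1 RPM in S/L. Every serum-free 8-day library was below the S/L libraries, and it was lower in 2i/L (log2 fold change -1.53 ± 0.29, limma adjusted p = 0.00048), in MEKi/L (-0.77 ± 0.29, limma adjusted p = 0.046) and in GSK3i/L (-0.82 ± 0.29, limma adjusted p = 0.044). In 24-day GSK3i/L Higd1a had 44.1 and 47.03 RPM. With the transcript length score as a covariate, the Bnip3l and Higd1a falls in 2i/L and the Ankrd37 fall in MEKi/L were not called, whereas the Bnip3 and Egln3 falls were. The smaller falls rested on single libraries, namely Higd1a in MEKi/L over S/L (without S/L 1, 2 or 3, GSK3i/L 2, 24-day GSK3i/L 2 or 3, MEKi/L 1 or 2 or 2i/L 2 or 3, giving -0.86 to -0.48) and GSK3i/L over S/L (without S/L 1, 2 or 3, GSK3i/L 1 or 2, 24-day GSK3i/L 2 or 3, MEKi/L 2 or 2i/L 2 or 3, giving -0.92 to -0.57).

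**Figure D4:**
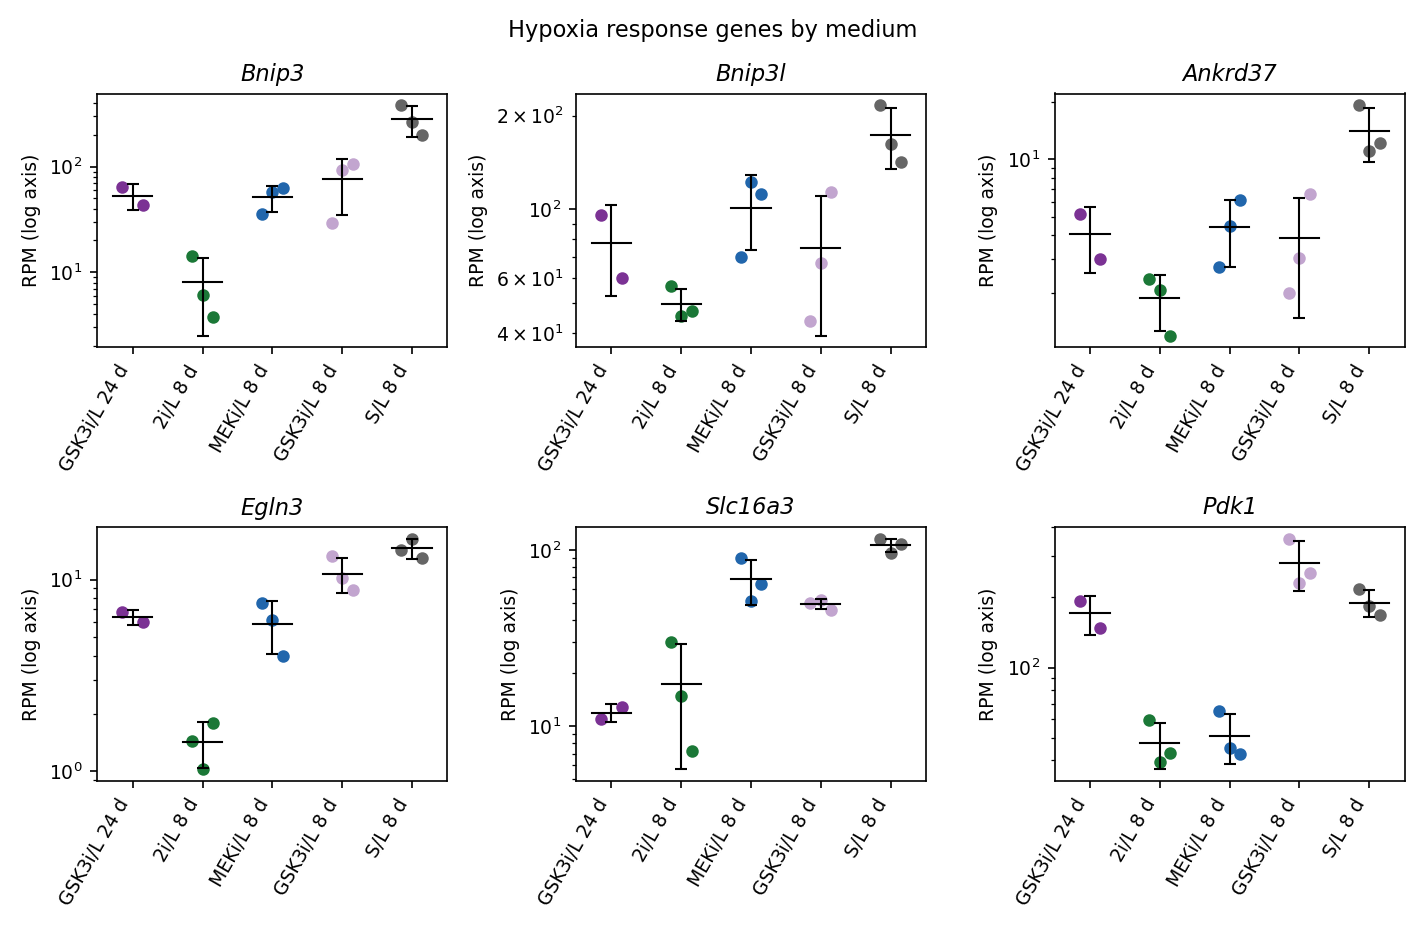
RPM on log axes of Bnip3, Bnip3l, Ankrd37, Egln3, Slc16a3 and Pdk1 by medium and day, with 1 point per library, a bar at the mean and error bars of 1 SD. Of the 7 further hypoxia response genes of the set, Higd1a, Car9, Vegfa and Ddit4 are not shown. Car9 and Vegfa were higher in MEKi/L than in S/L, so the genes shown do not stand for all. S/L has the highest mean for Bnip3, Bnip3l, Ankrd37, Egln3 and Slc16a3, 2i/L has the lowest for Bnip3, Bnip3l, Ankrd37 and Egln3, and Pdk1 is lowest in 2i/L and MEKi/L.

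Not all targets fell. Car9, a carbonic anhydrase gene that is a classical marker of hypoxia, had 0.762, 0.711 and 0.793 RPM in 2i/L, 1.71, 1.80 and 1.33 RPM in MEKi/L, 0.534, 0.492 and 0.324 RPM in GSK3i/L, against 0.554, 0.379 and 0.517 RPM in S/L. MEKi/L lay above all other 8-day libraries on 14 to 27 reads per library, with log2 fold changes of 1.74 ± 0.35 (limma adjusted p = 0.0015) over S/L and 1.86 ± 0.35 (limma adjusted p = 0.0017) over GSK3i/L. Car9 overlaps Gm12454 on the opposite strand, which had up to 0.969 RPM. Vegfa, the growth factor of blood vessels, ranged over 21.7 to 53.2 RPM and was higher in MEKi/L than in S/L (log2 fold change 0.63 ± 0.21, limma adjusted p = 0.028) and than in GSK3i/L (0.83 ± 0.21, limma adjusted p = 0.013). Ddit4, an inhibitor of mTORC1 signalling, ranged over 61.8 to 160.2 RPM. It was lower in GSK3i/L than in S/L (log2 fold change -0.66 ± 0.21, limma adjusted p = 0.029), and it was higher in 2i/L (0.76 ± 0.21, limma adjusted p = 0.016) and in MEKi/L (0.94 ± 0.21, limma adjusted p = 0.0055) than in GSK3i/L. Calls that 1 library ended were Ddit4 in GSK3i/L over S/L (without S/L 2 or 3 or GSK3i/L 1 or 3, giving -0.71 to -0.50) and 2i/L over GSK3i/L (without GSK3i/L 3 or 2i/L 2 or 3, giving 0.58 to 0.73) and Vegfa in MEKi/L over S/L (without S/L 2 or MEKi/L 2 or 3, giving 0.35 to 0.63).

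In the list of other hypoxia response genes, 34 of them tested, higher calls outnumbered lower ones in each medium against S/L. This was so among all genes too, but not among the 7 hypoxia response genes of the set. The median log2 fold changes of the list were 0.28 in 2i/L, 0.27 in MEKi/L and 0.07 in GSK3i/L, beside 0.28, 0.17 and 0.06 for all genes. Against S/L 10 were higher and 7 lower in 2i/L, 12 higher and 5 lower in MEKi/L, and 7 higher and 4 lower in GSK3i/L. The share called was 50.0% in 2i/L, 50.0% in MEKi/L and 32.4% in GSK3i/L, beside 63.6%, 40.8% and 31.1% of all genes, so in 2i/L it was below the background and in GSK3i/L near it. Fam162a, a mitochondrial HIF-1 target linked to cell death, averaged 16.4 ± 1.20 RPM in 2i/L and 299.7 ± 37.1 RPM in S/L (SD), with a log2 fold change of -4.19 ± 0.47 (limma adjusted p = 6.4e-06). Ak4, a mitochondrial adenylate kinase also induced by HIF-1, went up, averaging 253 ± 32.7 RPM in 2i/L and 40.1 ± 2.98 RPM in S/L (SD), with a log2 fold change of 2.65 ± 0.20 (limma adjusted p = 2.8e-07). Ak4 was higher in MEKi/L than in GSK3i/L by 2.89 ± 0.20 (limma adjusted p = 5.2e-07) on the log2 scale. Adm, which encodes the vessel-dilating peptide adrenomedullin, was instead high in GSK3i/L, averaging 0.157 ± 0.137 RPM in MEKi/L and 5.06 ± 1.79 RPM in GSK3i/L (SD). The fibroblast and mesenchyme markers, high in the same GSK3i/L libraries, move with Adm, and their part in it was not tested.

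HIF binds DNA at short motifs that contain ACGTG or GCGTG, so the promoters of 3 of the genes lower in 2i/L are shown, as the 250 bases before the RefSeq start (GRCm38.p6). They lie at chr7:138909507-138909756, minus strand for Bnip3, chr12:54203875-54204124, minus strand for Egln3 and chr2:71872974-71873223, plus strand for the first of the annotated Pdk1 starts. Each reads 5′ to 3′ on the gene's strand, and capitals mark ACGTG or GCGTG on either strand.
Bnip3: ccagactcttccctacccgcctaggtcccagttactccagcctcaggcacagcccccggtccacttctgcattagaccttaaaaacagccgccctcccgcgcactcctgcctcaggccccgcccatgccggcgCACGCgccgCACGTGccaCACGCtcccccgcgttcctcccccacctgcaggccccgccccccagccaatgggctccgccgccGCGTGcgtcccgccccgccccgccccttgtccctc
Egln3: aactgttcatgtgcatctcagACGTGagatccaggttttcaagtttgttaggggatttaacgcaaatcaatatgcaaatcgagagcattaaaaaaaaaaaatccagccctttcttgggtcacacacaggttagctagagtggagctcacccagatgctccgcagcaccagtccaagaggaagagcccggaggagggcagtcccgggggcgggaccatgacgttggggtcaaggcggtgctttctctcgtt
Pdk1: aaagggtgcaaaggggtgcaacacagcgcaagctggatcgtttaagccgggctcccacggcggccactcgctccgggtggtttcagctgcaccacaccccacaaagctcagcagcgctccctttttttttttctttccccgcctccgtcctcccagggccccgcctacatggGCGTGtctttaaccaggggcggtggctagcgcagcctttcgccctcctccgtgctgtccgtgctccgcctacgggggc
The letters occur 5 times in the Bnip3 window, where CACGTG counts on both strands, and once each in the Egln3 and Pdk1 windows, as ACGTG in Egln3 and GCGTG in Pdk1. Windows were found for 36 of the 38 genes, without Bnip3l and Slc2a3, and 33 of them (91.7%) held 1 of the motifs, beside 41.5% of the 27025 genes with a window. ACGTG alone was in 21 of the 36 (58.3%), beside 18.5% of all genes. A gene counted if any of its windows held the letters, and the 27025 genes had 32851 windows. Both motifs contain CG, and all genes were included whether expressed or not. Base composition, number of windows and expression were not matched, so these shares are no test of HIF sites. Hk1, which rose in the serum-free media, also held them in 1 of its annotated windows, so these letters stood before genes of either direction.

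After longer culture with the GSK3 inhibitor, genes of glucose entry, glycolysis and lactate export were lower. In 24-day over 8-day GSK3i/L 13 of the 38 genes were lower (34.2%), where 13.2% of all genes were. They covered both glucose transporters, Hk2, Gpi1, Pfkl, Aldoa, Tpi1, Pgk1, Pgam1, Eno1, Pkm, Ldha and Slc16a3. The 18 enzyme genes that run from hexokinase to lactate dehydrogenase summed to 0.486% and 0.502% of the RPM in the 24-day libraries, against 1.19%, 1.13% and 0.671% in the 8-day ones. Gapdh, whose level is uncertain, is among the 18. The lowest 8-day library, replicate 3, was above both 24-day libraries and within the range of S/L, which had 0.539% to 0.712%. Slc2a1 had 55.7 and 52.6 RPM at 24 days, against 256, 171 and 141 RPM at 8 days, and a log2 fold change of -1.76 ± 0.29 (limma adjusted p = 0.0024). Slc16a3 had 10.9 and 12.9 RPM at 24 days, against 49.7, 52.2 and 45.9 RPM at 8 days, and a log2 fold change of -2.05 ± 0.41 (limma adjusted p = 0.0086). Slc2a1 was called without each library in turn, though with only 1 of the 24-day libraries left the spread is that of the other groups. The Slc16a3 call was lost with 1 library fewer, Slc16a3 (without 24-day GSK3i/L 2 or 3, giving -2.17 to -1.93). In both genes the times did not overlap, and the 24-day values were below those of S/L as well.

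Among the enzymes, Pkm had 800.4 and 840.4 RPM at 24 days (log2 fold change over 8 days -1.36 ± 0.35, limma adjusted p = 0.023) and Pfkl had 73.5 and 95.3 RPM (-1.34 ± 0.36, limma adjusted p = 0.026). Hk2 had 102 and 134 RPM (-1.26 ± 0.40, limma adjusted p = 0.043) and Tpi1 had 144 and 121 RPM (-1.24 ± 0.26, limma adjusted p = 0.011). These span the pathway, with the hexokinase at its start and pyruvate kinase at its end. Aldoa had 779.7 and 777 RPM (-1.22 ± 0.30, limma adjusted p = 0.020) and Eno1 had 425 and 475 RPM (-1.15 ± 0.32, limma adjusted p = 0.030). Ldha had 522 and 397 RPM (-1.06 ± 0.27, limma adjusted p = 0.022) and Slc2a3 had 492 and 684 RPM (-0.99 ± 0.32, limma adjusted p = 0.049). For these genes too every 24-day value was below every 8-day value. Gpi1 had 236 and 326 RPM (-0.95 ± 0.31, limma adjusted p = 0.0498), Pgam1 had 51.7 and 42.9 RPM (-0.86 ± 0.17, limma adjusted p = 0.0085) and Pgk1 had 315 and 204 RPM (-0.73 ± 0.23, limma adjusted p = 0.046). Each of these 11 calls was lost with 1 library fewer. They included Pgk1 (without S/L 1, 2 or 3, GSK3i/L 1 or 2, 24-day GSK3i/L 2 or 3, MEKi/L 3 or 2i/L 1, 2 or 3, giving -1.05 to -0.42) and Gpi1 (without S/L 1, 2 or 3, GSK3i/L 1 or 2, 24-day GSK3i/L 2 or 3, MEKi/L 2 or 3 or 2i/L 1, 2 or 3, giving -1.18 to -0.72). Others were Slc2a3 (without S/L 1, 2 or 3, GSK3i/L 1 or 2, 24-day GSK3i/L 2 or 3, MEKi/L 2 or 3 or 2i/L 1, 2 or 3, giving -1.23 to -0.75) and Hk2 (without S/L 1, 2 or 3, GSK3i/L 1 or 2, 24-day GSK3i/L 2 or 3, MEKi/L 3 or 2i/L 1, 2 or 3, giving -1.46 to -0.82). The same held for Pfkl (without GSK3i/L 1 or 2 or 24-day GSK3i/L 2 or 3, giving -1.53 to -1.13), Aldoa (without GSK3i/L 1 or 2 or 24-day GSK3i/L 2 or 3, giving -1.22 to -1.07) and Eno1 (without GSK3i/L 1 or 2 or 24-day GSK3i/L 2 or 3, giving -1.23 to -0.92). It also held for Pkm (without GSK3i/L 1 or 2 or 24-day GSK3i/L 2 or 3, giving -1.40 to -1.13) and Ldha (without GSK3i/L 1 or 24-day GSK3i/L 2 or 3, giving -1.26 to -0.86). The calls of Tpi1 (without 24-day GSK3i/L 3, giving -1.11) and Pgam1 (without 24-day GSK3i/L 3, giving -0.72) were each lost in 1 case.

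The 3 genes that rose between the times were Eno2, Car9 and Vegfa. Eno2 had 19.3 and 38.5 RPM at 24 days, against 6.15, 12.8 and 9.84 RPM at 8 days, a log2 fold change of 1.57 ± 0.38 (limma adjusted p = 0.019). Car9 had 1.22 and 1.41 RPM at 24 days (16 reads in each library), against 0.534, 0.492 and 0.324 RPM at 8 days, a log2 fold change of 1.57 ± 0.39 (limma adjusted p = 0.021). Vegfa had 44.4 and 47.6 RPM at 24 days, against 31.2, 28.7 and 24.5 RPM at 8 days, a log2 fold change of 0.71 ± 0.23 (limma adjusted p = 0.0498). Calls lost with 1 library fewer were Eno2 (without GSK3i/L 1 or 24-day GSK3i/L 3, giving 1.07 to 1.28) and Car9 (without 24-day GSK3i/L 2 or 3, giving 1.47 to 1.68). So was that of Vegfa (without S/L 3, GSK3i/L 1, 2 or 3, 24-day GSK3i/L 2 or 3, MEKi/L 2 or 3 or 2i/L 1, 2 or 3, giving 0.62 to 0.79). The genes not called between the times included Pfkp (180.5 and 247 RPM at 24 days), Aldoc (64.8 and 46.2 RPM), Gapdh (8.66 and 11.01 RPM), Pdk2 (2.51 and 3.35 RPM) and Hif1a (83.4 and 84.3 RPM). Of the 34 other hypoxia response genes tested, 14 were lower (41.2%, beside 13.2% of all genes) and none higher at 24 days. Ak4 averaged 9.73 ± 1.81 RPM in 24-day GSK3i/L and 27.7 ± 7.88 RPM in 8-day GSK3i/L (SD), with a log2 fold change of -1.49 ± 0.23 (limma adjusted p = 0.0016). Loxl2, which crosslinks collagen, averaged 1.80 ± 0.188 RPM in 24-day GSK3i/L and 13.03 ± 4.86 RPM in 8-day GSK3i/L (SD), with a log2 fold change of -2.79 ± 0.29 (limma adjusted p = 9.9e-05).

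**Figure D5:**
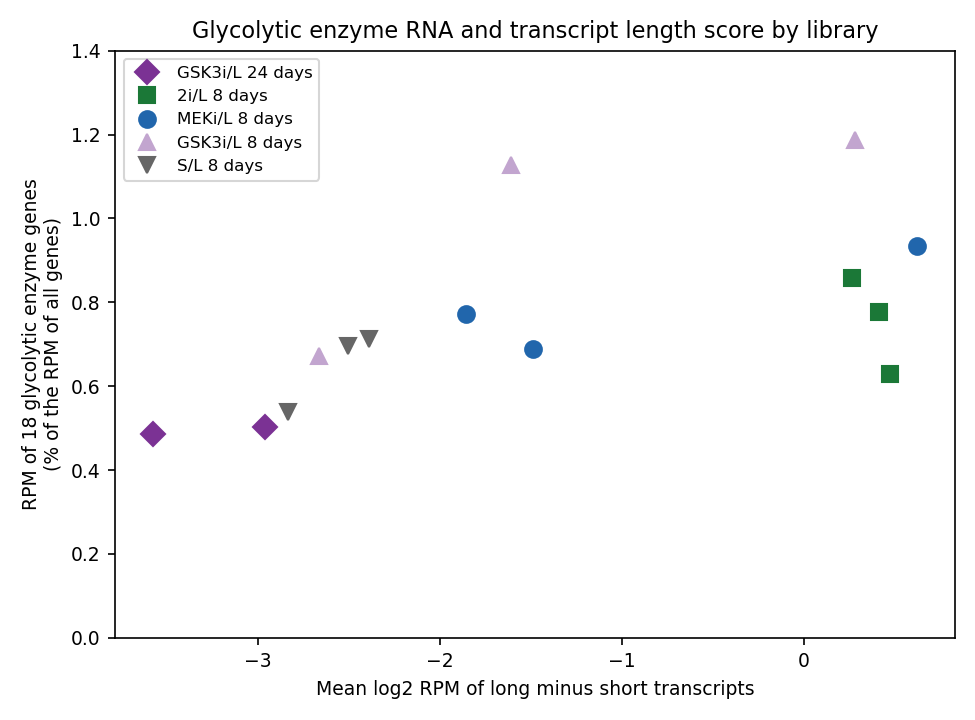
Summed RPM of 18 glycolytic enzyme genes, hexokinase to lactate dehydrogenase, as a percentage of the RPM of all genes (y axis, starting at 0) against the transcript length score of each library in log2 units (x axis), with 1 point per library. The 24-day GSK3i/L libraries have the lowest scores and 0.486% and 0.502%, and 8-day GSK3i/L replicates 1 and 2 have 1.19% and 1.13%.

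The times also differed in the RNA levels of cell type markers and in library profile, beside the 24-day libraries being of the other processing kind. The fibroblast and mesenchyme markers summed to 6.91 to 8.01 RPM at 24 days, against 106 to 249 RPM at 8 days, and the transcript length score was lower in both 24-day libraries (-3.57 and -2.96) than in any 8-day one. Their part in the falls was not tested beyond the fit with the score as a covariate, which left 6 of the 16 calls. A fit of only these groups left 1 call, and each of the 16 was lost in at least 1 setting. Leaving out 24-day replicate 3 left 1 call and leaving out replicate 2 left 4, while without 8-day replicate 1 or 2 there were 5 and 7. Against S/L, the count in MEKi/L was 11, 10 and 11 without S/L replicate 1, 2 and 3, and 12 and 13 without MEKi/L replicate 1 and 2. The count in GSK3i/L against S/L was 9 without GSK3i/L replicate 1 and 10 without S/L replicate 1. In 2i/L against MEKi/L it was 9, 8 and 10 without MEKi/L replicate 1, GSK3i/L replicate 1 and GSK3i/L replicate 3. In MEKi/L against GSK3i/L it was 5 without any 1 MEKi/L replicate. The shares of all genes called in these other fits are not given here, so these counts have no background.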

How the data were processed

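RNA from 14 libraries of E14 cells in 5 groups was analysed; 24 bisulfite libraries in 12 groups are not analysed here. The libraries were directional and made from poly(A) RNA, then read single-end on a HiSeq2500, per the labels' protocols. Per the submitters' processing notes, the tools were Trim Galore 0.6.5, Bismark 0.22.3 and HISAT2 on GRCm38, without a stated role, and how reads were counted (strand, multiple mapping) is not stated there. The deposited values are log2 RPM per gene, made by the authors. In 8 columns the linear values were whole multiples of 1 read for 100% of values (tolerance 0.02 read, 0 reads entered as 0.9 read), which gave 10550000 to 15760000 reads. The other 6 columns shared 1 distribution (largest difference above 2 RPM 0.08 on the log2 scale), so their depth is unknown and no count test was run across the groups.

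Genes at 0.5 RPM or more in at least 3 libraries were tested (14980 of 25965). One limma 3.58.1 fit (R 4.3.3; empirical Bayes with trend and robust variances) of the deposited log2 values by group, with no pseudocount, gave 7 comparisons, with Benjamini-Hochberg adjustment over all genes tested. It was tested on simulated data. Fold changes understate changes of genes near 0. Values in every library are given for a gene that, in at least 1 comparison, was called, differed at least 2-fold and had no overlap of replicates. They are also given for a gene that is the only one of its step. From each other list, some of the called genes with the largest changes and a mean of at least 5 RPM in 1 group are named. Not every such gene is named, and some left out had larger changes than those named. The 38 genes, the lists and the tests were chosen with earlier results of these data known. Alternatives were other scalings, filters, a pseudocount of 1, fits of only the 2 groups, other variance models, the replicate number as a block, the transcript length score, and leaving out libraries; 1 of them, leaving out both libraries that stood apart on the score, was chosen after seeing the data. MEKi/L and GSK3i/L libraries at 8 days with 1 number correlated in their deviations from the group means (0.12 to 0.67 over 3 pairs). MEKi/L replicate 2 correlated more with GSK3i/L replicate 3 (0.38) than with GSK3i/L replicate 2 (0.12). Pairing by number is therefore not shown by the data, and the labels do not give it. Between the other groups the values of libraries with 1 number ran from -0.31 to 0.23. The promoter windows come from a RefSeq table.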

Additional observations from a re-analysis of the deposited data

How the results depend on the processing

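Of the 99 calls of single genes, 40 held under every alternative run. The shares of all genes called under each alternative are not given here, so the counts of the set below have no background. Counts of genes called moved past 1.5 times as follows. With median centring they were 13 in MEKi/L against S/L and 8 in 2i/L against MEKi/L. With quantile normalization the count was 10 in 24-day against 8-day GSK3i/L. Fits of only the 2 groups gave 10 in GSK3i/L against S/L, 5 in MEKi/L against GSK3i/L and 1 in 24-day against 8-day GSK3i/L. With the transcript length score as a covariate they were 12 in MEKi/L and 14 in 2i/L against S/L, 16 in MEKi/L against GSK3i/L and 6 in 24-day against 8-day GSK3i/L. The replicate block gave 9 in 24-day against 8-day GSK3i/L; block and score together gave 13 in 2i/L against S/L, 7 in 2i/L against MEKi/L and 18 in MEKi/L against GSK3i/L. Samples of different media share only a number, and pairing by it is not shown. Without both libraries that stood apart on the score the counts were 11 in 2i/L against MEKi/L and 5 in MEKi/L against GSK3i/L. Leaving out 1 library at a time gave 21 to 26 in 2i/L, 10 to 21 in MEKi/L and 9 to 21 in GSK3i/L against S/L, 3 to 10 in 2i/L against MEKi/L, 8 to 16 in 2i/L against GSK3i/L, 5 to 12 in MEKi/L against GSK3i/L and 1 to 21 in 24-day against 8-day GSK3i/L. Where a gene was called with or without the alternative, the sign turned only in fits with the score. In 2i/L over S/L these were -0.020 for Hk2, -0.89 for Pkm and -0.037 for Hif1a, and with the block added -0.024 for Hk2, -1.03 for Pkm, -0.33 for Pdk4 and -0.10 for Hif1a. With block and score the value was -0.60 for Eno1 in MEKi/L over S/L and -0.79 for Bnip3l in 24-day over 8-day GSK3i/L. The cause was not tested. Depth limits genes with few reads, among them Car9, Egln3, Ankrd37, Pfkfb4 and Pdk2; Car9 could not be tested with the filter at 2 RPM.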

Other observations

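All 7 genes of the pentose phosphate pathway, which makes NADPH and ribose from glucose 6-phosphate, were tested. In 2i/L 5 were higher and 2 lower than in S/L, in MEKi/L 4 were higher, and in GSK3i/L 4 were higher and 1 lower. The share called was 100.0% in 2i/L, 57.1% in MEKi/L and 71.4% in GSK3i/L, beside 63.6%, 40.8% and 31.1% of all genes. Pgd, its second dehydrogenase, averaged 406 ± 59.3 RPM in 2i/L and 131 ± 14.2 RPM in S/L (SD), with a log2 fold change of 1.63 ± 0.22 (limma adjusted p = 3.1e-05). Tkt, the transketolase that returns sugars to glycolysis, averaged 736 ± 7.14 RPM in 2i/L and 352 ± 65.3 RPM in S/L (SD), with a log2 fold change of 1.08 ± 0.28 (limma adjusted p = 0.0043). In 24-day against 8-day GSK3i/L 3 of the 7 were lower and none higher (13.2% and 4.3% of all genes were), Pgd averaging 113 ± 3.68 RPM in 24-day GSK3i/L and 252 ± 66.2 RPM in 8-day GSK3i/L (SD).

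Of 16 genes of the tricarboxylic acid cycle, 7 were higher and 5 lower in 2i/L than in S/L, 3 higher and 3 lower in MEKi/L, and 5 higher in GSK3i/L. The share called was 75.0% in 2i/L, 37.5% in MEKi/L and 31.25% in GSK3i/L, beside 63.6%, 40.8% and 31.1% of all genes. With both directions together it was thus near the background in MEKi/L and GSK3i/L. Higher calls made up 43.75%, 18.75% and 31.25% in these media, beside 39.1%, 26.1% and 16.8% of all genes. Lower calls made up 31.25%, 18.75% and 0%, beside 24.4%, 14.7% and 14.4%. Cs, the citrate synthase gene at the entry of the cycle, averaged 431 ± 26.9 RPM in 2i/L and 175 ± 31.9 RPM in S/L (SD), with a log2 fold change of 1.32 ± 0.21 (limma adjusted p = 0.00015). The subunit genes of succinate dehydrogenase went both ways in 2i/L. Sdha averaged 309 ± 15.8 RPM in 2i/L and 147 ± 26.3 RPM in S/L (SD), with a log2 fold change of 1.09 ± 0.26 (limma adjusted p = 0.0027), while Sdhd averaged 124 ± 4.14 RPM in 2i/L and 282 ± 48.7 RPM in S/L (SD), with a log2 fold change of -1.17 ± 0.30 (limma adjusted p = 0.0039). The transcript length score moves with these values between 2i/L and S/L, with 33 of 37 long transcripts higher and 29 of 40 short ones lower in 2i/L, and its part in them was not tested. The lists were chosen with results of these data known, and these values describe them without a test of the lists.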
